A study of Homo sapiens with 20 samples.

Results

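The ZNF genes encode zinc finger proteins, a class of mostly DNA-binding transcription factors, and 183 of them carried at least 1 skipped exon event in the RNA-seq table of FUBP1 depletion. A gene was a member if its symbol was ZNF followed by digits only, with an optional final letter from A to D, and if that table listed an exon of it. These 183 genes held 429 of 19792 events in that table, in 377 of 17528 distinct exons. In the table of U3 depletion 162 of them held 557 of 32990 events, in the table of FBL depletion 64 of them held 104 of 7065 events, and all 183 were listed among the 28278 genes of the RNA immunoprecipitation table. The rule used no inclusion level and no difference between groups, but a gene needs junction reads to be listed, and 67 other ZNF genes with events in the U3 table were not members.

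A C2H2 zinc finger is a short fold held together by a zinc ion, and arrays of such fingers read DNA sequence. Many ZNF proteins also carry a KRAB domain, whose A box recruits the corepressor TRIM28 and through it the histone methyltransferase SETDB1, and many of these proteins silence transposable elements. Because the KRAB box and the fingers are encoded by different exons, skipping an exon can give a protein without the repressive domain or without a full finger array. In GENCODE release 44 the pattern of a C2H2 finger was found in the protein of 182 members, all but ZNF185, with a median of 11 fingers and up to 36 in ZNF142. The core pattern of the KRAB A box was found in at least 1 protein of 102 members and in none of the other 81. A KRAB box that departs from this fixed pattern is missed, so the 81 are not shown to lack the domain. Below, members with or without the KRAB core are those with or without a match to the pattern. The members with the pattern had a median of 12 fingers and those without it a median of 8. Chromosome 19, where ZNF genes lie in clusters, held 81 members, 65 of them with the KRAB core.

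The study asked how exon inclusion and RNA binding by FUBP1 depend on 2′-O-methylation, a methyl mark on the ribose of RNA, and worked with 20 samples of HepG2, a cell line from a human liver tumour. FUBP1 is a nuclear RNA-binding protein that takes part in splice site recognition. FBL is the methyltransferase that places the mark, guided by small nucleolar RNAs with C and D boxes. U3 belongs to that class and acts in the processing of ribosomal RNA. Cells received the control siRNA siCtrl2 or the siRNA siFUBP1 and were harvested after 48 hours (3 libraries each), or received an antisense oligonucleotide (ASO) against GFP or against U3 and were harvested after 72 hours (3 libraries each). These 12 libraries held polyadenylated RNA. In the other experiment cells received siCtrl or siFBL for 48 hours, and RNA that came down with FUBP1 (RIP, RNA immunoprecipitation) was sequenced beside its input (2 libraries in each of the 4 groups). The methods call the samples biological replicates, each depletion had its own controls, and no other alteration of the cells is stated.

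Each table gave inclusion and skipping junction reads per library. The inclusion level was the share of inclusion reads after scaling by effective length, from 0 when the exon was always skipped to 1 when it was always kept, and every change is depletion minus control. Libraries held 2693397 to 4474350 junction reads in the siFUBP1 table, 11249641 to 13321799 in the U3 table and 910779 to 1142189 in the input table. Per 1000000 junction reads of a library, FUBP1 itself had 45.2, 56.1 and 50.3 in siCtrl2 and 8.42, 10.1 and 4.08 in siFUBP1, without overlap. It had 64, 58.7 and 56.9 in GFP ASO and 43.4, 42.6 and 38.7 in U3 ASO, also lower without overlap. FBL had no event in these tables. Its mean count over RIP and input in the authors' table was 1034 in siCtrl and 164 in siFBL, each normalized on its own. ZNF events were thinly read: with a mean of at least 10 reads per library 202 member events were tested after FUBP1 depletion, 427 after U3 depletion and 48 in input, while 227, 130 and 56 were below this minimum. The median tested member event had 22.8, 38.2 and 22.6 reads per library, against 60, 124 and 40 over all events tested. Many ZNF genes are close copies of one another (ZNF33A and ZNF33B, for example), and how reads matching several copies were handled is not given in the sources used here, so the split of reads between such copies is uncertain.

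The sequences of the exons on which the results turn come first. The exons with the smallest p among the members after FUBP1 depletion are both in ZNF207 and lie on the plus strand of chromosome 17 in hg38, at chr17:32366665-32366757 (93 bases) and chr17:32361468-32361515 (48 bases). Both are whole coding exons with lengths that are multiples of 3, so that skipping keeps the reading frame. They are printed with 30 bases of the intron before and 10 bases of the intron after, at chr17:32366635-32366767 and chr17:32361438-32361525, with the exon in capitals.
ZNF207 93-base exon: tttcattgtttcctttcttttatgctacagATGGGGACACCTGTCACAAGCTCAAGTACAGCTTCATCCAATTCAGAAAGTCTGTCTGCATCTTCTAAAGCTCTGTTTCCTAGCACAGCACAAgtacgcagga
ZNF207 48-base exon: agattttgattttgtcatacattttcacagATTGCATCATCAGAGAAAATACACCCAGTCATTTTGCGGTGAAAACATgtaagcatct

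For 3 further exons of the same comparison the window of 30 intron bases and the first 10 exon bases (capitals) shows the 3′ splice site, the kind of sequence that FUBP1 is known to contact. They were taken from the annotated exons among the named ones whose siCtrl2 and siFUBP1 libraries did not overlap, of which 1 is not shown. They are the 147-base coding exon of ZNF195 (chr11:3361880-3361919, minus strand), the 98-base 5′ noncoding exon of ZNF248 (chr10:37856523-37856562, minus strand) and the 78-base coding exon of ZNF274 (chr19:58183891-58183930, plus strand).
ZNF195: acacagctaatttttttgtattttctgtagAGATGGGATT
ZNF248: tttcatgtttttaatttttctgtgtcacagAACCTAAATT
ZNF274: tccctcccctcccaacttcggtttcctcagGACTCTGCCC
Over the 50 intron bases before the exon the median share of T was 36% for tested member events and 38% for all events tested.

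The exon that encodes the KRAB A box is most often 127 bases long, which is no multiple of 3, so that skipping it alone shifts the reading frame. The 4 exons printed here are the 3 with the most reads in the U3 table and the 1 among the named exons. They are those of ZNF114 (chr19:48282371-48282497, plus strand), ZNF561 (chr19:9617045-9617171, minus strand), ZNF655 (chr7:99562368-99562494, plus strand) and ZNF772 (chr19:57475660-57475786, minus strand). Capitals mark the codons of the KRAB A core.
ZNF114: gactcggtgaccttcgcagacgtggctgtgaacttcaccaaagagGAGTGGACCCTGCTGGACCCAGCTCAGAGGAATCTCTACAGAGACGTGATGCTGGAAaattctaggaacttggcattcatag
ZNF561: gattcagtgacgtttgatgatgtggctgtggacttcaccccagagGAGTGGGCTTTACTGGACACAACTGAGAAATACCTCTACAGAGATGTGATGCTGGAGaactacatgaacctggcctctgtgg
ZNF655: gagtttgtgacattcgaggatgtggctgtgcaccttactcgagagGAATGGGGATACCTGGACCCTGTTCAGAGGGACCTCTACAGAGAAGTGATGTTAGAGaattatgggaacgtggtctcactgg
ZNF772: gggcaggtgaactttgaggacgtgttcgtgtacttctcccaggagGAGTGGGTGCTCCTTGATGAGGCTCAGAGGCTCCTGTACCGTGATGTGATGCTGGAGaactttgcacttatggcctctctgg
Pairs of these exons were identical at 63% to 74% of the 127 positions, with ZNF114 and ZNF561 closest and ZNF655 and ZNF772 furthest apart.

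The exon make-up of the members differed from that of the other genes in the same table. Of the 377 member exons in the siFUBP1 table, 64.5% were coding against 83% of 17151 exons of other genes, and 19.4% lay in the 5′ noncoding part against 6.32%. Another 9.02% of member exons matched no annotated exon, against 3.96%. Exons of exactly 127 bases numbered 46 of 377 in the members and 90 of 17151 in other genes. In the U3 table they numbered 42 of 442 and 192 of 27382. Lengths that are multiples of 3 made up 36.9% of member exons and 44.6% of other exons after FUBP1 depletion, but 41.4% and 41.2% in the U3 table, so that this contrast was not shared by the tables.

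In control cells ZNF exons were more often partly included than the exons of other genes. The control level lay between 0.1 and 0.9 for 43.1% of tested member events in siCtrl2 against 20.8% of all events tested, for 37.2% against 17.8% in GFP ASO, and for 50% against 30.7% in siCtrl input. Part of this difference went with read depth, since thinly read events had intermediate levels more often. Within classes of 10 to 25, 25 to 50, 50 to 100 and at least 100 reads the shares in siCtrl2 were 50.5%, 41.8%, 26.9% and 16.7% for members against 39.3%, 26.1%, 16.3% and 8.13% for all events. In GFP ASO they were 50.3%, 42.1%, 28.9% and 17.8% against 43.1%, 30.8%, 21% and 8.7%. The share was higher for members in each of the 8 classes, and no test of this difference was run. Of the 31 tested events of other zinc finger families (ZBTB, ZFP, ZSCAN and ZKSCAN genes) 51.6% lay in this range in siCtrl2.

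**Figure D1:**
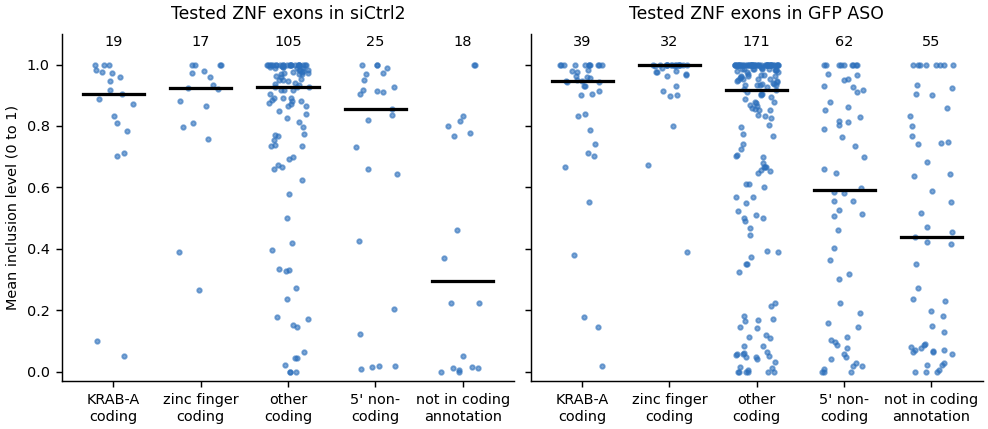
Mean inclusion level (0 to 1, vertical axis) of each tested ZNF exon in siCtrl2 (left) and GFP ASO (right), 1 point per exon, grouped by what the exon encodes, with the median as a bar and the number of exons above. In GFP ASO most zinc finger and KRAB A exons sit near 1, with medians of 0.998 and 0.946, though some KRAB A exons lie far lower. There 5′ noncoding exons spread over the whole range with a median of 0.592. In siCtrl2 the medians of these classes lie closer together.

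The control level differed between classes of exon, and so did depth, with medians in the U3 table of 123 reads per library for finger exons, 34 for KRAB A exons, 50 for other coding exons, 28.3 for 5′ noncoding exons and 34.8 for exons outside coding annotation. Exons outside coding annotation are here all those that are neither coding nor 5′ noncoding. The part of depth in these levels was not tested. Taking for each exon the event with the most reads, the 32 tested exons with finger codons in GFP ASO had a median level of 0.998 and 28 of them were at 0.9 or above. The 39 KRAB A exons had a median of 0.946, with 26 at 0.9 or above and 12 between 0.1 and 0.9, and the 171 other coding exons a median of 0.918. The 62 noncoding 5′ exons had a median of 0.592, with 32 between 0.1 and 0.9 and 13 below 0.1. The 55 exons outside coding annotation had a median of 0.438. In siCtrl2 the order was less clear, with medians of 0.923 for 17 finger exons, 0.905 for 19 KRAB A exons, 0.927 for 105 other coding exons, 0.855 for 25 noncoding 5′ exons and 0.296 for 18 exons outside coding annotation. The KRAB A exons with the lowest levels in GFP ASO were those of ZNF71 (0.0179), ZNF584 (0.146 and 0.177 for its 127-base and 151-base forms) and ZNF442 (0.381). In ZNF442 the libraries ranged from 0 to 0.708. ZNF71 was at 0.0508 in siCtrl2 and at 0 in siCtrl input as well, from 14.7 and 13.8 reads per library, and GFP ASO had 18.3.

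The first comparison asked whether exon inclusion depends on FUBP1. Of 202 member events tested 1 was called, the 93-base exon of ZNF207, which fell, while 0.154% of all 16213 events were called at an adjusted p under 0.1. ZNF207, also known as BuGZ, binds microtubules and the checkpoint protein BUB3 and acts in spindle assembly, and it has 2 fingers and no KRAB core. The inclusion level of the 93-base exon was 0.128, 0.172 and 0.153 in siCtrl2 and 0.0406, 0.0495 and 0.0741 in siFUBP1. Behind these levels stood 71, 193 and 118 inclusion reads beside 297, 572 and 403 skipping reads in siCtrl2, and 48, 49 and 61 beside 699, 579 and 469 in siFUBP1. No siFUBP1 library reached the lowest siCtrl2 library. The mean went from 0.151 ± 0.0219 to 0.0547 ± 0.0174 (SD, n = 3 each), a change of -0.0963. A quasi-binomial test with dispersions moderated by limma gave p = 4.2e-07 and an adjusted p of 0.000678. This p rests on the dispersion over all events and not on the spread of this exon. An exact two-sided permutation test gave 0.1, the smallest that 3 against 3 libraries allow. The call depended on the test and on 1 library: limma on the log2 odds of inclusion gave an adjusted p of 0.863, and without library 1 of siFUBP1 the quasi-binomial test gave 0.113.

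**Figure D2:**
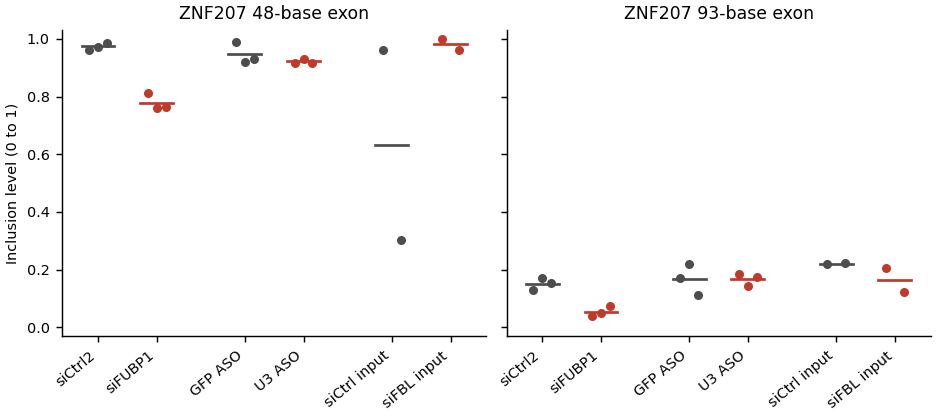
Inclusion level (0 to 1, vertical axis) of the 48-base (left) and 93-base (right) exon of ZNF207 in each library of the 6 RNA-seq and input groups, with a bar at each group mean and depleted groups in red. In siFUBP1 the 93-base exon lay at 0.0406 to 0.0741 and the 48-base exon at 0.759 to 0.811, below all siCtrl2 libraries, and in U3 ASO both overlapped their controls.

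The 48-base exon of the same gene showed the next smallest p among the members, with skipping nearly absent in control cells. Its level was 0.963, 0.973 and 0.987 in siCtrl2 and 0.811, 0.759 and 0.764 in siFUBP1, from 3, 3 and 1 skipping reads against 15, 29 and 21. The groups did not overlap, and the mean went from 0.974 ± 0.0122 to 0.778 ± 0.0284 (SD, n = 3 each). This event did not pass the threshold (adjusted p = 0.597). After U3 depletion the exon was at 0.947 in GFP ASO and 0.922 in U3 ASO, and the 93-base exon at 0.167 and 0.168. In the input libraries the 93-base exon was at 0.219 and 0.221 in siCtrl and at 0.204 and 0.123 in siFBL (38.5 reads per library). The groups did not overlap, but the siFBL library at 0.204 lay close to the controls, with 5 inclusion and 12 skipping reads. The quasi-binomial test gave p = 0.668 for this exon. In the same libraries the 48-base exon was at 0.963 and 0.303 in siCtrl and at 1 and 0.963 in siFBL, a spread between the controls larger than the difference of the group means.

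Apart from the 93-base exon of ZNF207 and the 48-base exon above, the adjusted p of each member exon named here for siFUBP1 was 0.836, for U3 ASO 0.868 or 0.9 and for siFBL 0.897, so that none of these was called. An unadjusted p under 0.05 was found at 7 member events (3.47%, against 3.57% of all events), 5 of them lower and 2 higher in siFUBP1. The groups did not overlap at 10 member events (4.95%, against 5.05%), 6 lower and 4 higher. The median change was 0.0164 over tested member events and -0.00139 over all events. The median size of a change was larger in members, 0.0785 against 0.0298, beside their lower reads. ZNF195, whose KRAB protein has 9 fingers, had its 147-base exon at 0.37, 0.444 and 0.188 in siCtrl2 and at 0.0347, 0 and 0 in siFUBP1 (24.8 reads per library). Only 1 inclusion read remained in the siFUBP1 libraries, against 14, 19 and 11 in siCtrl2. Measured in its best-read event, the same exon was at 0.222 in GFP ASO and 0.418 in U3 ASO, again without overlap but higher in the depleted cells.

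The 78-base exon of ZNF274, a KRAB protein known to bring SETDB1 to its own zinc finger gene targets, went the other way. Its level was 0.455, 0.932 and 0.707 in siCtrl2 and 1 in all 3 siFUBP1 libraries (28.3 reads per library), with 11, 1 and 3 skipping reads in siCtrl2 and 0 in siFUBP1. It was at 1 in GFP ASO and 0.965 in U3 ASO. The noncoding 98-base exon of ZNF248 was at 0.906, 1 and 1 in siCtrl2 and 0.453, 0.707 and 0.628 in siFUBP1. The 121-base exon of ZNF189 was rare in siCtrl2, at 0.0507, 0.0672 and 0.0124, and had no inclusion read in any siFUBP1 library. These exons separated the groups, but they were not called. Among the named events with the fewest reads were a 77-base exon of ZNF33B, at 0.767, 0.913 and 0.622 in siCtrl2 and 0 in the 2 siFUBP1 libraries with reads (10.2 reads per library), and an unannotated 113-base exon of ZNF783, at 0.532, 0.872 and 1 against 0.0751, 0 and 0 (10 reads).

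Better-read named exons showed smaller differences or rested on 1 library. The 199-base exon of ZNF326, a subunit of the DBIRD complex that links transcript elongation to splicing, was at 1 in every library but library 1 of siFUBP1, where it was at 0.87 (119 reads per library). The 126-base exon of ZNF362 owed its siCtrl2 mean of 0.145 to library 2, at 0.381, beside 0.0134 and 0.0421. The 115-base exon of ZNF706 was at 0.00969 in siCtrl2 and 0.00806 in siFUBP1 (208 reads), and the 202-base finger exon of ZNF511 at 0.934 and 1 (159 reads). Among the KRAB A exons, 19 of 45 listed were tested, and with 1 event per exon none had p under 0.05 or groups that did not overlap. Another event of the KRAB A exon of ZNF655, with other neighbouring exons and 10.5 reads, was an exception, at 0.506 in siCtrl2 and 1 in siFUBP1 with an unadjusted p under 0.05.

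**Figure D3:**
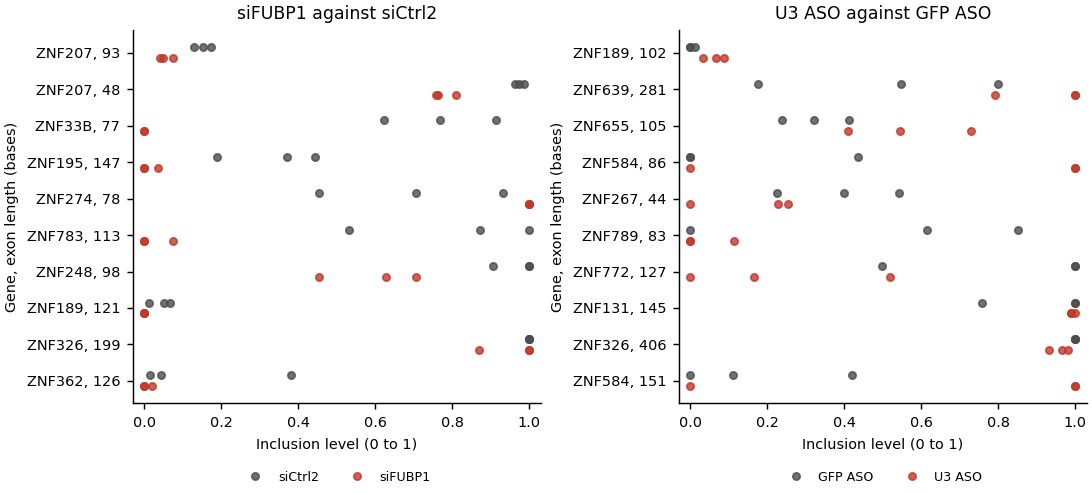
Inclusion level (0 to 1, horizontal axis) in each library for the 10 ZNF exons (1 event each) with the smallest p in the siFUBP1 comparison (left) and the U3 comparison (right), 1 point per library, controls in grey and depleted cells in red, labelled by gene and exon length in bases. On the left 7 exons separate the groups completely and a further 1, in ZNF33B, does so among the libraries with reads, while on the right only ZNF189 and the 406-base exon of ZNF326 do.

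After depletion of U3 the deeper table gave no called member event. Of 427 member events tested 0 were called, against 0.186% of all 30109 events. An unadjusted p under 0.05 was found at 10 member events (2.34%, against 3.25%), 5 lower and 5 higher, and limma on the log2 odds called 0 events of any gene, with 1961 at an unadjusted p under 0.05. The groups did not overlap at 23 member events (5.39%, against 6.03%), 9 lower and 14 higher. The median change was -0.00927 in members and -0.00355 in all events.

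The member event with the smallest p was in an unannotated 102-base form of the ZNF189 exon that starts 19 bases after the annotated one. It was at 0, 0.012 and 0 in GFP ASO and at 0.0665, 0.0861 and 0.0336 in U3 ASO (210 reads per library). Its inclusion reads numbered 0, 4 and 0 against 21, 30 and 16. The annotated 121-base form was at 0.0569 and 0.107. ZNF410 is known for activating the chromatin remodeller gene CHD4. Its 118-base exon was at 0, 0.018 and 0.0269 in GFP ASO and 0.0742, 0.0493 and 0.0518 in U3 ASO, and its 122-base exon at 0 in all GFP ASO libraries and 0.00628, 0.0508 and 0.00573 in U3 ASO. The 51-base exon of ZNF410 overlapped between the groups, at 0.00446 and 0.0467 on average. The 138-base exon of ZNF114 was at 0.0384, 0 and 0 in GFP ASO and 0.0941, 0.0623 and 0.0515 in U3 ASO. These exons had been chosen for the lowest control levels at 50 reads or more, so that their levels had little room to be lower.

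ZNF655 had the most events of all members in the siFUBP1 table (11), and ZNF133 in the U3 table (19). ZNF655 has forms with and without the KRAB A box, and it showed how the level of an exon depends on the neighbours it is measured against. Its KRAB A exon had 4 tested events in the U3 table, with means of 0.964, 0.825, 0.174 and 0.976 in GFP ASO and 0.606, 0.995, 0.333 and 0.918 in U3 ASO. The first of these had 0, 2 and 0 skipping reads in GFP ASO and 52, 0 and 37 in U3 ASO, so that library 2 of U3 ASO behaved like the controls (62.8 reads per library). In the event at 0.174 the libraries did not overlap, at 0.194, 0.181 and 0.145 against 0.343, 0.351 and 0.306. The 105-base exon of ZNF655 was at 0.411, 0.239 and 0.321 in GFP ASO and 0.731, 0.544 and 0.41 in U3 ASO, with library 3 of U3 ASO just below library 1 of GFP ASO. Events of this gene differed in both directions, and none was called.

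Other named exons in the U3 table varied between libraries of 1 group. The 281-base noncoding exon of ZNF639 was at 0.8, 0.547 and 0.175 in GFP ASO and 0.792, 1 and 1 in U3 ASO, and the 44-base exon of ZNF267 at 0.226, 0.4 and 0.542 against 0, 0.227 and 0.253. The KRAB A exon of ZNF772 was at 1, 0.497 and 1 in GFP ASO and 0, 0.519 and 0.166 in U3 ASO (13.7 reads per library). Each of these overlapped between the groups. The 86-base exon of ZNF584 was at 0.437, 0 and 0 in GFP ASO and 1, 1 and 0 in U3 ASO, and the 83-base exon of ZNF789 at 0, 0.616 and 0.853 against 0, 0 and 0.114. The 145-base exon of ZNF131 was at 0.759 in library 2 of GFP ASO and at 0.9885 or above in the 5 others. The 406-base exon of ZNF326 was the best-read exon without overlap (332 reads), at 1 in all GFP ASO libraries and 0.981, 0.966 and 0.933 in U3 ASO, while its 96-base and 199-base exons were at 0.985 and 0.992, and at 1 and 0.998. Among 39 KRAB A exons with 1 event each none had p under 0.05 or groups that did not overlap, with 21 changes below 0 and 18 above.

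After depletion of FBL no member event was called, and 56 of the 104 listed in the input libraries were below the minimum of reads. Of 48 member events tested 0 were called, as was 0% of all 5208 events, and 0 had an unadjusted p under 0.05, against 1.46% of all events (76). That background ranged from 22 events without library 1 of siFBL to 359 without library 2 of siFBL. The groups of 2 libraries did not overlap at 14 member events (29.2%, against 13.8% of all events), 7 lower and 7 higher. These member events had a median of 22.6 reads per library against 40 over all events, and more often an intermediate control level, as given above. An event with the same level in libraries of both groups, such as 1, cannot separate them. The parts of depth and control level in this share were not tested. An exact permutation test of 2 against 2 libraries cannot give p below 0.333. For an event without tied levels this is also the chance that the groups separate when nothing differs. The named exons show the spread between control libraries. The 65-base exon of ZNF12 was at 0 and 1 in siCtrl and at 1 in both siFBL libraries. The 127-base exon of ZNF394 was at 0.142 and 0.351 in siCtrl and at 1 in both siFBL libraries, from 5 and 8 inclusion reads. The 165-base exon of ZNF76 was at 1 and 1 against 0.882 and 0. With 176 reads the 143-base exon of ZNF512B was at 1 in both siCtrl libraries and 0.88 and 0.981 in siFBL, and its other well-read exons, of 102 and 99 bases, were at 0.987 and 1, and at 0.982 and 1. ZNF195 had the most events in this table (7).

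Of the member exons 149 were tested in both the siFUBP1 and the U3 table, which share no library. Each exon was represented in each table by its event with the most reads, so its neighbouring exons can differ between the tables. The difference from control was below 0 in both at 41, above 0 in both at 33, below 0 in siFUBP1 and above 0 in U3 ASO at 30, and the reverse at 45. Over all 11739 shared exons the same 4 counts were 3435, 2555, 2575 and 3174. The level of a member exon differed between the 2 controls by a median of 0.0626, against 0.0227 over all shared exons. Only 1 member exon differed by over 0.5, the KRAB A exon of ZNF655, at 0.1 in siCtrl2 and 0.976 in GFP ASO. How much of these differences, and of the counts above, goes with differing neighbours was not tested. The median size of a change over tested member events was 0.0785 in siFUBP1 and 0.058 in U3 ASO.

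Junction reads summed over all events of a gene also gave a rough measure of its level, a comparison added after the tables had been seen. The measure counts only reads at listed events, and it moves with inclusion itself, since an included exon has 2 junctions. In bulk samples fewer cells that express a gene and less of its RNA per cell cannot be told apart. Values per library below are per 1000000 junction reads of that library, and log2 changes were centred on the median gene of each library and tested with limma. In siFUBP1 4 of 122 tested member genes were called higher (against 6.45% of 6432 genes) and 6 lower (against 5.74%), at an adjusted p under 0.1. The member median was -0.098 and the median of all genes -0.019.

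Of the 6 lower genes after FUBP1 depletion 2 carry the KRAB core, and of the 4 higher genes 2 do. ZNF512B was at 166, 119 and 134 in siCtrl2 and 51.1, 53.1 and 73.5 in siFUBP1 (log2 change -1.21, SE 0.19, adjusted p = 0.000467). ZNF142, the member with the most fingers, was at 44.5, 90.7 and 48.3 against 22.7, 28.3 and 15.6 (log2 change -1.39, SE 0.302, adjusted p = 0.00789). ZNF326 was at 102, 138 and 111 against 83.4, 55 and 64.6 (log2 change -0.774, adjusted p = 0.0155). In all 3 no siFUBP1 library reached a siCtrl2 library, and ZNF362, ZNF266 and ZNF778 were also lower. ZNF274 was higher, at 21.8, 19.7 and 26.6 in siCtrl2 and 46.9, 60.7 and 55.3 in siFUBP1 (log2 change 1.28, SE 0.255, adjusted p = 0.00393), without overlap. ZNF207 was slightly higher, at 163, 203 and 204 against 238, 244 and 238 (log2 change 0.369, SE 0.128, adjusted p = 0.0872), and ZNF562 and ZNF821 were the others.

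**Figure D4:**
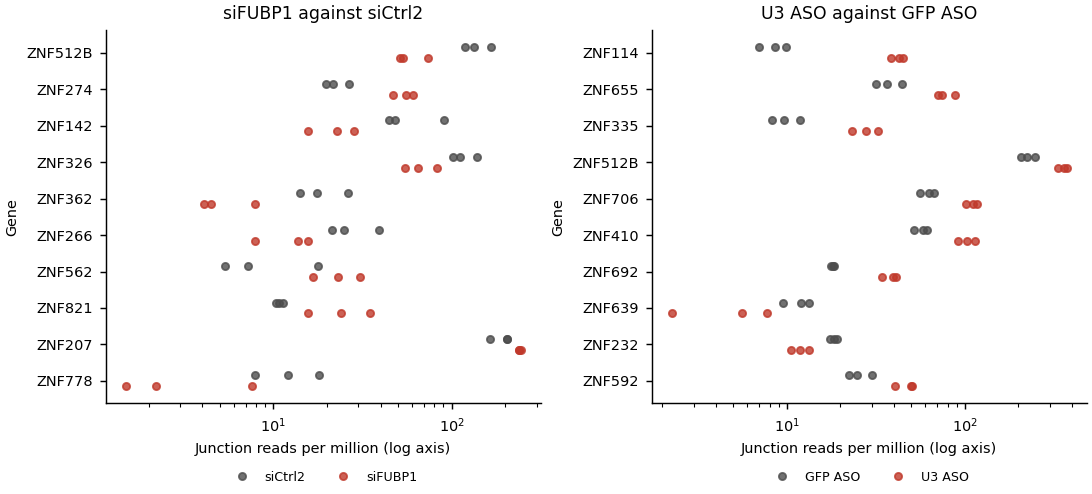
Junction reads over all events of a gene per 1000000 junction reads of the library (horizontal log axis) in each library, for the 10 ZNF genes with the smallest p in the siFUBP1 (left) and U3 (right) comparison, controls in grey and depleted cells in red. ZNF114 rose from 6.95 to 9.93 in GFP ASO to 38.3 to 44.8 in U3 ASO, and ZNF512B was lower in siFUBP1 and higher in U3 ASO than in its controls.

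In U3 ASO 17 of 148 tested member genes were called higher, against 18.6% of 8548 genes, and 9 lower, against 18.8%. The member median was 0.221 and the median of all genes 0.036. Scaled to total junction reads instead, which moved the median of all genes to 0.278, 36 members were higher and 5 lower with a member median of 0.462. Members without a match to the KRAB core pattern supplied 13 of the 17 higher and 3 of the 9 lower genes, out of 65 tested. Members with a match supplied 4 and 6 out of 83. Calls also depend on reads. Thinly read genes were found in both groups, but the best-read members were without a match. ZNF512B had a mean of 3557 reads per library, ZNF326 3305 and ZNF638 2000. The highest mean among members with a match was 807, in ZNF189. The part of depth in this split was not tested. ZNF114, a KRAB protein with 3 fingers, moved most among the named genes, at 8.53, 6.95 and 9.93 in GFP ASO and 42.8, 44.8 and 38.3 in U3 ASO (log2 change 2.07, SE 0.216, adjusted p = 7.4e-07). ZNF335, a transcriptional activator needed in neural development, was at 9.69, 8.25 and 11.9 against 32.6, 23.2 and 27.9 (log2 change 1.24, SE 0.236, adjusted p = 0.000536). ZNF655 was at 44.2, 36.4 and 31.7 against 87.9, 74.8 and 70.9 (log2 change 0.82, SE 0.148, adjusted p = 0.000327). None of these 3 overlapped between the groups. ZNF512B, lower in siFUBP1, was at 208, 250 and 225 in GFP ASO and 336, 374 and 362 in U3 ASO (log2 change 0.413, adjusted p = 0.000587). Together with it, ZNF706, ZNF410, ZNF692 and ZNF592 rose by 0.413 to 0.833 on the log2 scale. ZNF639 was lower, at 12, 13.4 and 9.48 against 5.58, 7.7 and 2.25 (log2 change -1.55, adjusted p = 0.00724), as was ZNF232 (-0.873, adjusted p = 0.00735).

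In siFBL input 0 of 35 tested member genes were called in either direction, against 1.77% of 3217 genes higher and 1.43% lower, and 1 member had an unadjusted p under 0.05. That gene was ZNF362, at 278 and 188 in siCtrl and 137 and 99.3 in siFBL (log2 change -0.811, adjusted p = 0.301). The member median was -0.181 and that of all genes -0.032. Over all member events together the input libraries held 2444 and 2412 per 1000000 junction reads in siCtrl and 1985 and 1867 in siFBL, lower without overlap. The same sum was 2332, 2458 and 2310 in GFP ASO and 3192, 3195 and 3183 in U3 ASO, higher without overlap. It was 2617, 2868 and 2618 in siCtrl2 and 2544, 2566 and 2417 in siFUBP1, lower without overlap. These sums were not centred on the median gene. With the same scaling to total junction reads the median of all genes was also higher in U3 ASO, as given above.

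The RIP table gave for each gene the log2 fold change of FUBP1 RIP over input (enrichment) with its standard error, both computed by the authors over 2 libraries an arm, so values per library are not shown. With a mean count of at least 50 in both conditions 180 members and 11581 genes in all were compared. The median enrichment of ZNF transcripts in siCtrl was 1.23, against 0.154 for all genes. Enrichment lay more than 2 standard errors above 0 for 113 members (62.8%, against 45.3% of all genes) and more than 2 below 0 for 36 (20%, against 41.2%). The count of a gene went with its enrichment, and the members had the higher median in each class of counts: over 4 classes of rising mean count (28, 98, 43 and 11 members) the medians were 0.476, 1.12, 1.86 and 2.55 for members and -0.586, -0.494, 0.583 and 1.22 for all genes. No test between genes was made, since genes are not replicates.

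A median above that of all genes was found in most of the classes of zinc finger gene compared, but not in members with few fingers. The median was 1.36 for 99 members with the KRAB core and 1.12 for 81 without it, and 1.5 for 78 members on chromosome 19 against 1.04 for 102 elsewhere. ZNF genes that were not members had a median of 0.851 (204 genes) and the other zinc finger families one of 0.954 (68 genes). The 28 members with 1 to 5 fingers had the lowest median of the finger classes, 0.137, close to that of all genes. It was 1.35 for 6 to 10, 1.6 for 11 to 15 and 1.17 for more fingers. The highest enrichment was that of ZNF483 (4 ± 0.164, SE), followed by ZNF280D (3.73), ZNF680 (3.65), ZNF708 (3.51) and ZNF805 (3.5). The lowest was that of ZNF688 (-2.75 ± 0.541, SE), followed by ZNF687 (-2.55), ZNF787 (-2.51), ZNF48 (-2.46) and ZNF821 (-2.4). ZNF207, with the exon that fell after FUBP1 depletion, was at 1.35 ± 0.128 (SE), close to the member median, and ZNF326 at 2.85 ± 0.0772.

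**Figure D5:**
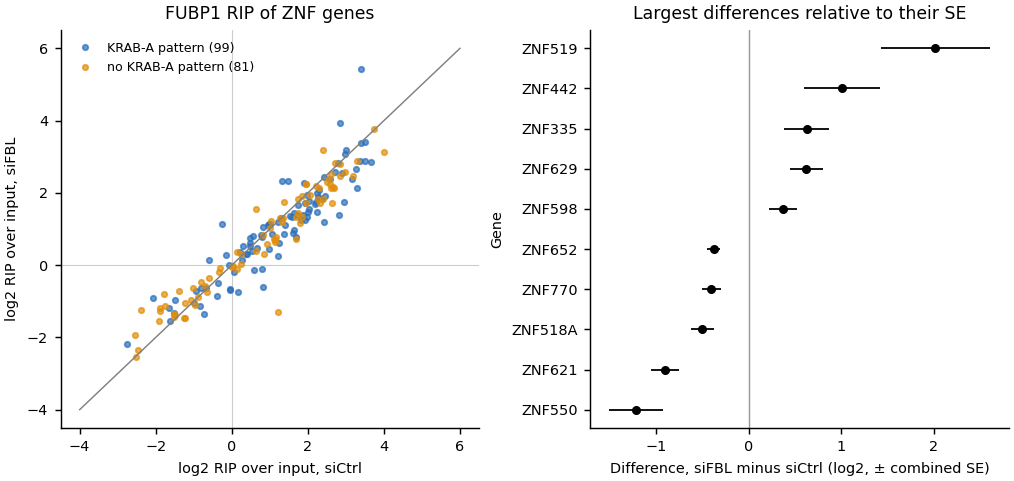
Left, log2 RIP over input of 180 ZNF genes in siCtrl (horizontal) and siFBL (vertical), 1 point per gene, by presence of the KRAB A pattern, with the line of equal values. Right, the 5 highest and 5 lowest differences (siFBL minus siCtrl, log2, with combined standard errors) relative to their error, from -1.22 in ZNF550 to 2.02 in ZNF519.

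After FBL depletion the median enrichment of the members was 1.11, and the median difference, siFBL minus siCtrl, was -0.141 against -0.00138 for all genes. Beyond 2 combined standard errors 9 members were higher (5%, against 9.64%) and 24 lower (13.3%, against 12.1%). ZNF621 had the largest difference relative to its error, -0.904 ± 0.153 (combined SE), from 2.63 to 1.73. ZNF652, a repressor of transcription, went from 2.96 to 2.58 (-0.381 ± 0.0731) and ZNF550 from 2.42 to 1.2 (-1.22 ± 0.291). ZNF518A and ZNF770 were lower by a like size (-0.502 and -0.405). In the other direction ZNF519 went from 3.4 to 5.42 (2.02 ± 0.587), ZNF629 from -1.88 to -1.26 (0.621) and ZNF335 from -1.76 to -1.14 (0.626). ZNF598, a ubiquitin ligase that acts on collided ribosomes, went from -1.91 to -1.54 (0.371) and ZNF442 from 1.32 to 2.33 (1.01). Among these 10 the genes with lower values in siFBL were all strongly enriched in siCtrl, while those with higher values started from both ends. The siCtrl value is part of the difference by which these genes were chosen, so the starting value and the difference are not independent. ZNF207 was at 1.35 and 1.3.

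The partners of KRAB zinc finger proteins were read as a list of 16 genes that includes TRIM28, SETDB1, the HP1 genes and the HUSH complex. After FUBP1 depletion 23 events of 10 of these genes were tested and 0 were called, with an unadjusted p under 0.05 at 2, both lower in siFUBP1: a 177-base exon of CBX1 (0.996 to 0.958) and a 72-base exon of TASOR (1 to 0.912, adjusted p = 0.836 for both). After U3 depletion 66 events of 14 genes were tested, and in input 12 events of 7 genes, with 0 called and 0 at an unadjusted p under 0.05 in each. In the RIP table TRIM28 was among the strongly depleted transcripts, at -3.03 ± 0.107 (SE) in siCtrl, whereas SMARCAD1 was at 3.64 ± 0.125 and CBX5 at 2.6 ± 0.0664. The rest of the list lay between -1.46 (HDAC1) and 1.92 (ATF7IP), with SETDB1 at -0.635.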

How the data were processed

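Polyadenylated RNA of HepG2 cells (12 libraries) and FUBP1 RIP with input (8 libraries) had been sequenced. The authors trimmed adapters with Cutadapt, aligned reads to hg38 with HISAT2 and counted skipped exon events with rMATS, with versions not given in the sources used here. The 3 deposited tables hold junction reads as lists with 1 whole number per library and effective lengths. Positions in the lists carry no replicate number, so a library is named by its position. For the gene counts that the authors compared with DESeq2, the methods name HTSeq and the processing notes featureCounts. The deposited RIP table holds the authors' log2 fold change of RIP over input with its standard error, and a mean normalized count, both treated as a score. The p-values, FDR and inclusion differences of the authors, and 6 columns with inclusion levels per library, are the authors' own findings or can be computed from the reads, and were not used.

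Inclusion levels were computed from the reads. Events with a mean of at least 10 reads per library were tested with a quasi-binomial model, whose dispersion was moderated across all events of a table with limma 3.58.1 (R 4.3.3), and p-values were adjusted by Benjamini-Hochberg over all events tested. The prior took over the dispersion in full, so the p-value of an event rests on the dispersion over all events and not on its own spread. Calls had an adjusted p under 0.1. P-values are two-sided and apply to these libraries, and counting error depends on depth. Those of the quasi-binomial test rest on the spread between libraries over all events. Levels of genes used 1 added read, a scale of 1000000 junction reads and centring on the median gene with at least 50 reads. Exons were annotated with GENCODE release 44. Tests were also run on simulated data with a spread set in advance. For the quasi-binomial test it was below the median dispersion of the real events used for the prior (5.49, 6.51 and 7.67 for siFUBP1, U3 and siFBL). Only exons of intermediate level were changed there, so that check does not extend to this spread or to exons near 0 or 1. Named exons (1 event each, the one with the most reads) were the 10 (5 for siFBL) with the smallest p, those called, the 3 with the most reads in each table and the 5 with the lowest control level at 50 or more reads in the U3 table. Named RIP genes were the 5 highest and lowest by enrichment and by difference over its error. Genes named for junction-read levels were chosen after their values were seen. Members, lists and rules were chosen with earlier results of these data known. The alternatives covered the test, the filter on reads, each library left out, 1 event per exon, a pseudocount, the scaling of levels and the limits on counts and errors in the RIP table. Pearson dispersions and the junction-read comparison were added after seeing the data. The splice site windows of other named exons are not reported here.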

Additional observations from a re-analysis of the deposited data

How the results depend on the processing

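In siFUBP1 member events called went from 1 to 0 with limma on the log2 odds and 0 with a variance trend, and ranged from 0 to 1 with a library left out, 0 only without library 1 of siFUBP1. In these limma fits 8 and 6 events of all genes were called in place of 25 in siFUBP1, and 0 and 0 in place of 56 in U3. With a library left out the calls over all genes ranged from 10 (without library 1 of siCtrl2) to 20 and from 30 (without library 3 of U3 ASO) to 48. Counts of member events without overlap moved by over 1.5 times in 14 of 22 alternatives. For the 93-base exon of ZNF207 the adjusted p was 0.000536 with Pearson dispersions and 0.818 with the trend. Median inclusion changes of members were small and unstable: for siFUBP1 0.0164 became 0 with a mean of at least 1 read and ranged from 0 to 0.0202 with a library left out, for U3 from -0.00961 to 0 and for siFBL from -0.0305 to 0.0204. Member genes with a higher junction-read level in siFUBP1 numbered 2 with inclusion reads halved and 1 to 3 with a library left out (4 before). In U3 they numbered 36 scaled to total reads and 11 to 20 with a library left out, the fewest without library 1 of U3 ASO, and lower ones 5 scaled to total reads, 3 from the event with the most reads and 5 to 11 with a library left out, the fewest without library 3 of U3 ASO. The RIP median in siCtrl was 1.46 at a mean count of at least 200, and beyond 3 combined standard errors 2 members were higher and 11 lower. Of 477 values under alternatives 427 were labelled the same. For a count this meant equal or within 1.5 times. For a median or an exon not called it meant a move smaller than the spread, whatever the sign. For the called exon it meant the same direction and, where retested, the same side of the threshold. Signs turned for 1 of 12 named exons in siFUBP1 (ZNF706) and for 3 of 17 in U3 (ZNF131, ZNF207 and ZNF326), each with a change of at most 0.0731. The causes were not tested. No paired analysis was possible because positions in the lists carry no replicate number, so the planned replicate block was not run. Depth limited single events, since the median tested member event had 22.8 reads per library in siFUBP1 and 22.6 in the input table.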
